A study of Drosophila melanogaster with 12 samples.

Results

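The small heat shock proteins of the fly were followed at the transcript level in male brains in which TDP-43 was expressed and Atx2 was knocked down. The genes were taken by symbol from a list of 8, Hsp22, Hsp23, Hsp26, Hsp27, Hsp67Ba, Hsp67Bb, Hsp67Bc and l(2)efl. Of these, 7 had a row among the 17562 symbols of the count table, and 6 had counts. The study, per its design text, concerns the sleep disruption that TDP-43 causes and its relief through Atx2. Brain RNA was sequenced in 4 groups of 3 libraries, numbered as biological replicates.

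The first group was DaGSTDP(52s)-Atx2RNAi (BL44012), which expresses TDP-43 together with a hairpin against Atx2. The second was DaGSTDP(52s)-mCherryRNAi (BL35785), with TDP-43 and a hairpin against mCherry, a sequence that flies lack. The third was DaGS-Atx2RNAi (BL44012), without TDP-43 and with the Atx2 hairpin, and the fourth was DaGS-mCherryRNAi (BL35785), without TDP-43 and with the mCherry hairpin. All groups, the controls included, were males aged 1 to 2 days post eclosion at collection, bred at 25 °C, and carried the DaGS driver. Their brains were taken after 6 days on RU486. DaGS is the daughterless-GeneSwitch driver, which is active in most cell types when flies eat RU486, so neither TDP-43 nor the hairpins were limited to neurons. Each hairpin was represented by 1 stock, and how many brains went into a library was not stated. Since the transgene and the genetic background it came in were introduced together, their effects cannot be told apart. The same holds for each hairpin and the stock it came in, so a difference between hairpins is also a difference between stocks.

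Small heat shock proteins are ATP-independent chaperones built around an alpha-crystallin domain. They assemble into oligomers that hold unfolding proteins in a soluble state until ATP-dependent chaperones such as Hsp70 refold them or pass them on for degradation. In flies several of them are induced by heat through the heat shock factor and by the steroid hormone ecdysone during development. In the nervous system they are best known for limiting the aggregation of misfolded proteins.

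Library totals were between 29184618 and 45104293 counts, with 12227 to 13466 genes detected. Levels are given as CPM, counts scaled to library size, and 3 counts in a library correspond to 0.0645 to 0.104 CPM. Atx2 stood at 144 to 163 CPM in TDP-43 brains with Atx2 RNAi, 267 to 304 with mCherry RNAi and TDP-43, 152 to 166 in control brains with Atx2 RNAi and 343 to 363 with mCherry RNAi, so it was lower in every library with its hairpin. The transcript of the transgene was not analysed here, and TBPH, the fly's own TDP-43 gene, stood at 65.5 to 81.1 CPM in the 6 TDP-43 libraries and 127 to 147 CPM in the 6 control libraries. All 8 neuron and all 8 glia markers checked had counts in each group, with summed levels of 9480 to 11000 CPM for neurons and 3070 to 3850 CPM for glia. Markers of other tissues were present too. The 9 gut genes summed to 25.7, 624.9 and 19.35 CPM in TDP-43 brains with Atx2 RNAi, 13.6, 1370 and 45.8 in TDP-43 brains with mCherry RNAi, 15.4, 46.1 and 7.79 in control brains with Atx2 RNAi and 5.80, 6.63 and 8.08 in control brains with mCherry RNAi, so replicate 2 was highest in 3 of the 4 groups, and 1 or 2 of the 9 were at 0 throughout a group. Sums over all 12 libraries were 449 to 726 CPM for 5 genes listed for hemocytes and 1340 to 4720 CPM for 7 photoreceptor genes. The hemocyte list was Hml, NimC1, Pxn, Sr-CI and ppl, of which ppl is known from the fat body and is no specific hemocyte marker. The 12 muscle genes summed to 172 to 322 CPM in TDP-43 brains with Atx2 RNAi, 216 to 687 in TDP-43 brains with mCherry RNAi, 112 to 173 in control brains with Atx2 RNAi and 178 to 330 in control brains with mCherry RNAi, with none of the 12 at 0 in a group. The 8 fat body genes summed to 2390 to 5190, 2820 to 10600, 1370 to 1610 and 1460 to 2970 CPM in those 4 groups, in that order. In whole-brain RNA, fewer cells of a type and less RNA per cell cannot be told apart.

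Of the 8 genes, 7 lie in a cluster at 67B on chromosome arm 3L, within 14.2 kb from position 9371511 to 9385694 of the release 6 assembly (dm6), and l(2)efl lies alone on 2R from 23684651 to 23685543 on the minus strand. In map order the cluster holds Hsp67Bc (9371511 to 9372497, minus strand), Hsp67Bb (9372722 to 9374964, plus), Hsp22 (9372931 to 9374964, plus), Hsp26 (9376418 to 9377427, minus), Hsp67Ba (9377802 to 9379534, minus), Hsp23 (9381882 to 9382765, plus) and Hsp27 (9384063 to 9385694, plus). Hsp23, Hsp26, Hsp27, Hsp67Ba and Hsp67Bc are annotated with a single exon, and l(2)efl with 3 exons. The annotation places 3 other genes within or across the ends of that span, CG4461, asRNA:CR43481 and the pseudogene CR43483, which overlaps the last bases of Hsp27 and runs past it.

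**Figure D1:**
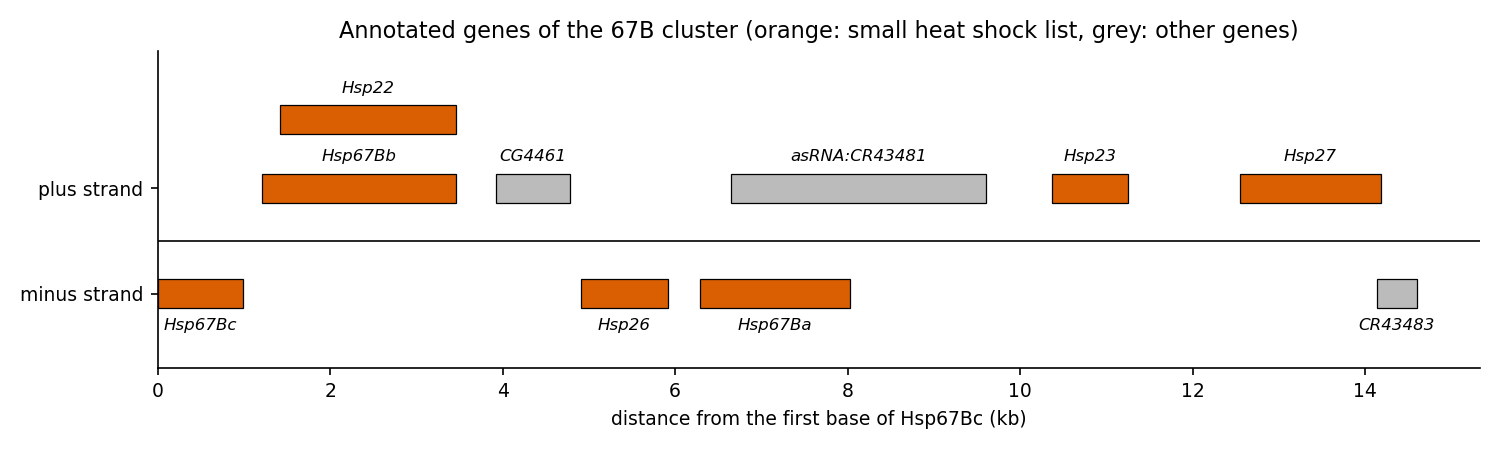
Annotated genes of the 67B cluster on 3L, drawn to scale by strand; the x axis is the distance in kb from the first base of Hsp67Bc. Orange boxes are the 7 listed genes, grey boxes the 3 other genes, and Hsp22 lies within the span of Hsp67Bb on the same strand.

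Hsp22, which encodes a mitochondrial small heat shock protein known for its induction with age, was listed at 0 counts in all 12 libraries. Hsp67Bb had no row under that symbol, and its row under the symbol CG4456 was also 0 in all 12 libraries. The exons of these 2 genes overlap on the same strand. All 1900 exonic bases of Hsp22 (100%) are shared with CG4456, and 90.1% of the 2109 exonic bases of CG4456 are shared with Hsp22. Across the table, 306 of 309 protein-coding genes whose exonic bases are all shared with another gene on the same strand were at 0 in every library (99%), against 522 of 8935 protein-coding genes that share no base (5.84%). Among 70 genes whose bases are all shared on the opposite strand only, 6 were at 0 (8.57%). The zero of Hsp22 is therefore not read as absence of transcript. Hsp67Bb shares only 90.1% of its bases and lies outside these classes, and the part of the overlap in its zero was not tested. Its zero is not read as absence either, and neither gene enters a comparison below.

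The other 6 genes passed the filter on low counts, with at least 69 counts in each library. Scaled by exonic length, so that genes can be compared, mean levels over the 12 libraries were 35.2 CPM per kb for Hsp67Ba, 31 for Hsp23, 18.8 for Hsp26, 13.4 for Hsp67Bc, 6.49 for l(2)efl and 4.16 for Hsp27. The summed length-scaled level of the 6 was 112 ± 11.9 CPM per kb in TDP-43 brains with Atx2 RNAi, 98.1 ± 20.5 in TDP-43 brains with mCherry RNAi, 108 ± 5.15 in control brains with Atx2 RNAi and 118 ± 5.34 in control brains with mCherry RNAi (SD, n = 3 each).

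The first question is what TDP-43 does to these transcripts under the mCherry hairpin. Hsp67Ba, Hsp23 and Hsp67Bc fell in TDP-43 brains and l(2)efl rose, while Hsp26 and Hsp27 did not pass the test. By edgeR's quasi-likelihood test over all genes, called at a Benjamini-Hochberg adjusted p under 0.05, 4 of the 6 genes were called, 1 higher and 3 lower, against 37.6% of the 10738 genes tested (19.2% higher and 18.3% lower). Libraries of the TDP-43 and control groups did not overlap in CPM for 4 of the 6, against 46.4% of all genes. The count of 4 was not tested against that background, and the genes moved in both directions. The median log2 fold change of the 6 was -0.07, beside 0.03 for all genes, and the median absolute log2 fold change was 0.68, beside 0.24 for all genes.

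The second question is what the Atx2 hairpin changes in TDP-43 brains. Only Hsp67Ba, 1 of the 6, was called there, and it was higher with Atx2 RNAi, against 14% of all genes called (7.68% higher and 6.36% lower). Its groups were also the only ones of the 6 genes' that did not overlap, against 32.7% of all genes. In brains without TDP-43, the Atx2 hairpin gave 0 called of the 6 by edgeR, with 1 gene (Hsp26) at an unadjusted p under 0.05, against 6.17% of all genes (3.24% higher and 2.93% lower). DESeq2 called 1, Hsp26 (adjusted p = 0.0497), and libraries did not overlap for 2 of the 6, Hsp23 and Hsp26, against 25.7% of all genes. TDP-43 against control under the Atx2 hairpin gave 1 call, Hsp67Ba, lower, against 22.5% of all genes (12.1% higher and 10.4% lower), and libraries did not overlap for 4 of the 6, against 43.8% of all genes. TDP-43 brains with Atx2 RNAi against control brains with mCherry RNAi gave 4 calls, Hsp26 and l(2)efl higher and Hsp67Ba and Hsp23 lower, against 28% of all genes (14.6% higher and 13.4% lower), and the same number did not overlap, against 44.7% of all genes. The interaction term, which tests whether the hairpin's effect differs between TDP-43 and control brains, gave 1 call, Hsp67Ba, with a positive value, against 0.428% of all genes (0.261% positive and 0.168% negative). These comparisons reuse the same 4 groups, so they are not independent of each other.

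**Figure D2:**
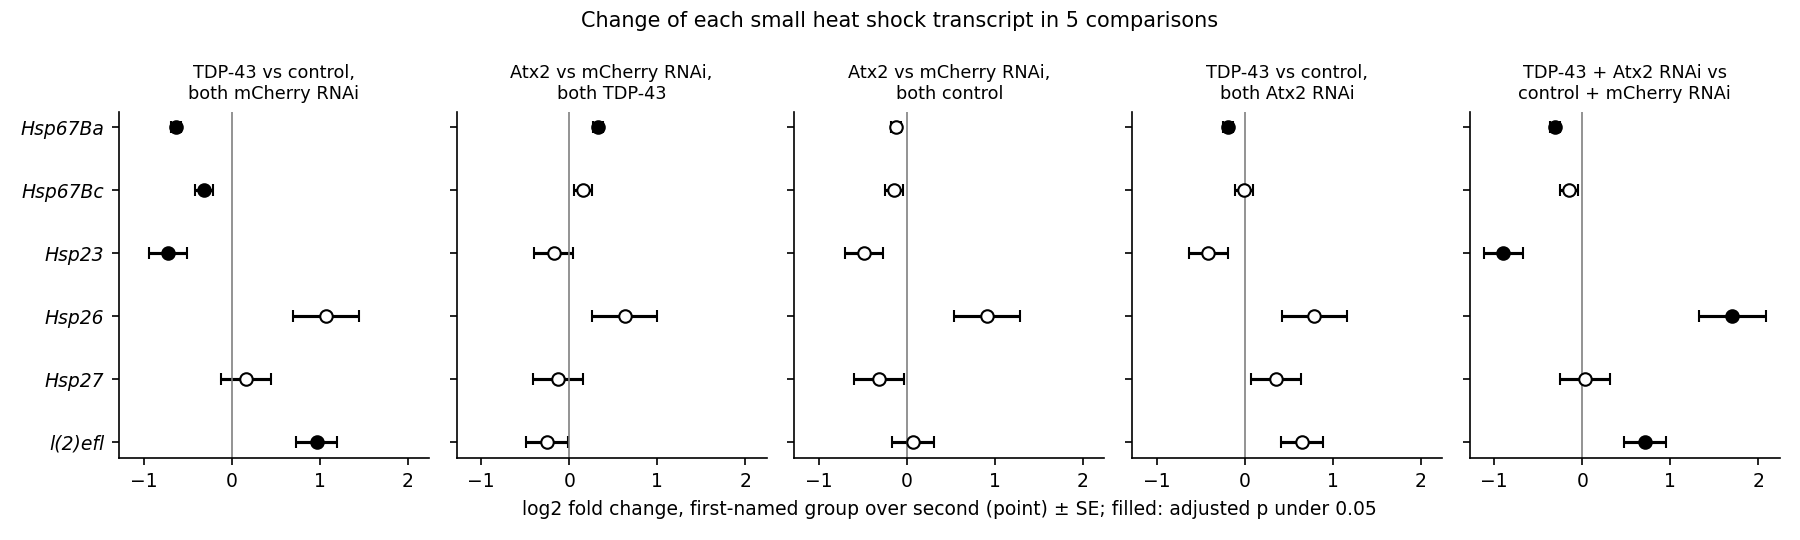
Log2 fold change (x axis, first-named group over the second) of each of the 6 genes with counts in 5 comparisons; points are estimates, whiskers are the SE, and filled points have an adjusted p under 0.05. Hsp67Ba is filled in 4 of the 5 panels, and Hsp26 lies to the right of 0 in all 5 but is filled only for TDP-43 with Atx2 RNAi against control with mCherry RNAi.

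Hsp67Ba, which encodes a long member of the family and has the longest annotated transcript of the 6 (1733 bases), had the smallest SE of the 6 in every comparison. It had 57.7, 59.4 and 58.3 CPM in TDP-43 brains with Atx2 RNAi, replicates 1 to 3, against 47.8, 44.1 and 47.8 CPM in TDP-43 brains with mCherry RNAi. Without TDP-43 it had 64.8, 66.9 and 67.55 CPM with Atx2 RNAi, against 73.0, 77.5 and 66.5 CPM with mCherry RNAi. Every TDP-43 library lay below every control library, and within the TDP-43 brains every library with Atx2 RNAi lay above every library with mCherry RNAi. The 2 control groups overlapped, since the third mCherry library (66.5 CPM) was below 2 of the 3 Atx2 libraries.

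With mCherry RNAi, Hsp67Ba averaged 46.6 ± 2.15 CPM in TDP-43 brains and 72.3 ± 5.5 CPM in control brains (SD, n = 3 each), a log2 fold change of -0.64 ± 0.06 (SE, edgeR adjusted p = 7.96e-06). Within TDP-43 brains it averaged 58.5 ± 0.834 CPM with Atx2 RNAi and 46.6 ± 2.15 CPM with mCherry RNAi, a log2 fold change of 0.33 ± 0.06 (edgeR adjusted p = 0.00351), which is 1.26-fold. These results share the TDP-43 libraries with mCherry RNAi. Both were called under each of the 18 alternatives tried. With Atx2 RNAi in both arms, the difference between TDP-43 and control brains was smaller, 58.5 ± 0.834 against 66.4 ± 1.46 CPM, with a log2 fold change of -0.18 ± 0.06 (edgeR adjusted p = 0.0394). That call was lost with the replicate number as a block (adjusted p = 0.0521) and held under 6 of 18 alternatives, with adjusted p from 0.0165 to 0.168. It was lost without any 1 of the 3 control libraries with Atx2 RNAi, any 1 of the 3 TDP-43 libraries with Atx2 RNAi, or replicate 1 or 3 of the TDP-43 group with mCherry RNAi. TDP-43 brains with Atx2 RNAi were still lower than control brains with mCherry RNAi, with a log2 fold change of -0.31 ± 0.06 (edgeR adjusted p = 0.00188), and this call held under all 18 alternatives.

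The Atx2 hairpin had no called effect on Hsp67Ba without TDP-43, where the level was 66.4 ± 1.46 CPM with Atx2 RNAi and 72.3 ± 5.5 CPM with mCherry RNAi (log2 fold change -0.12 ± 0.06, edgeR adjusted p = 0.265). The difference between the 2 hairpin effects, the interaction, was 0.45 ± 0.08 on the log2 scale (edgeR adjusted p = 0.0393). Of the 17 alternatives, 7 kept this call, and the adjusted p ran from 2.31e-04 to 0.165. Among the 12 fits with a library left out, the call was kept only without replicate 3 of control with mCherry RNAi (adjusted p = 0.0217) and without replicate 1 of TDP-43 with mCherry RNAi (0.0469). The other 10 gave log2 differences of the same sign, and over all alternatives the difference ran from 0.40 to 0.53. Of the exonic bases of Hsp67Ba, 75.9% lie opposite exons of asRNA:CR43481, and the strand setting of the counting was not stated. That antisense transcript had between 0.459 and 1.45 CPM in the 12 libraries and was called in none of the 6 comparisons.

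**Figure D3:**
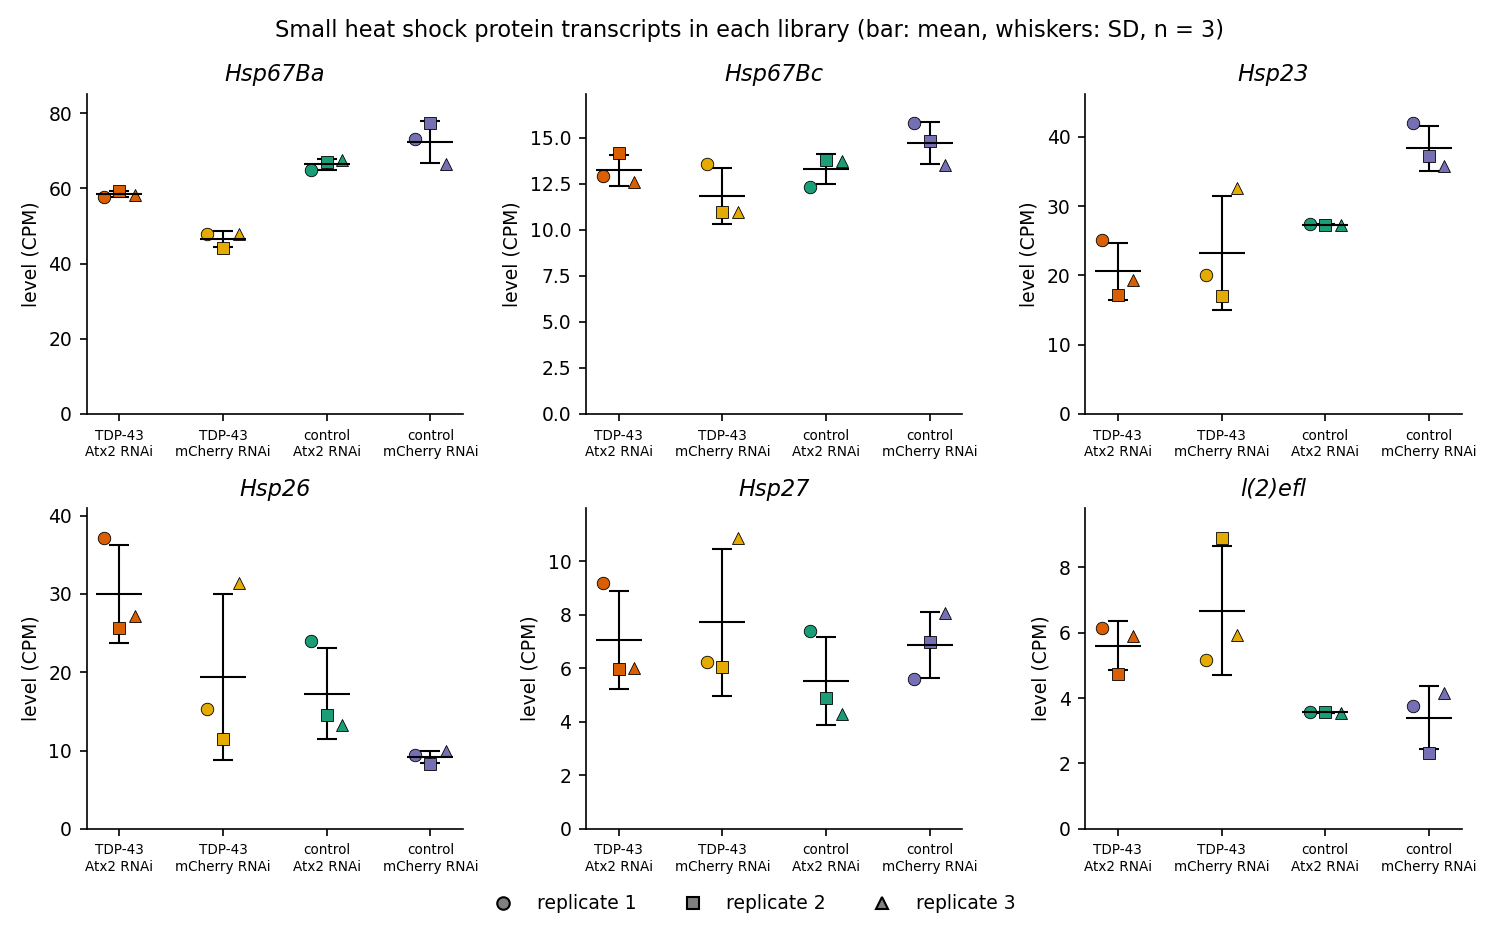
Level of each of the 6 genes in every library, in CPM on a linear y axis from 0; symbols mark replicates 1 to 3, the bar is the group mean and the whiskers are the SD (n = 3). Hsp67Ba is lowest in the 3 TDP-43 libraries with mCherry RNAi (44.1 to 47.8 CPM), whereas Hsp26, Hsp27 and Hsp23 in that group are spread by replicate 3.

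Hsp67Bc encodes the fly counterpart of HSPB8, a small heat shock protein that works with the BAG-domain co-chaperone Starvin in the autophagic removal of misfolded proteins. It had 12.9, 14.2 and 12.6 CPM in TDP-43 brains with Atx2 RNAi, 13.6, 10.95 and 10.99 in TDP-43 brains with mCherry RNAi, 12.3, 13.8 and 13.75 in control brains with Atx2 RNAi, and 15.8, 14.8 and 13.5 in control brains with mCherry RNAi. The TDP-43 and control groups with mCherry RNAi overlapped by 1 library, replicate 1 of the TDP-43 group, which was just above the lowest control library. With mCherry RNAi the mean was 11.8 ± 1.51 CPM in TDP-43 brains and 14.7 ± 1.14 CPM in control brains (SD, n = 3 each), a log2 fold change of -0.31 ± 0.10 (edgeR adjusted p = 0.0313). The call was lost in a fit of those 2 groups alone (adjusted p = 0.0674), without replicate 1 or 2 of the control group (0.109 and 0.0747) and without replicate 2 or 3 of the TDP-43 group (0.101 and 0.105). Hsp67Bc was called in no other comparison. Its partner gene stv, which encodes Starvin, was at 92.7 to 115.4 CPM in the TDP-43 brains with mCherry RNAi and 96.8 to 125 CPM in the control brains with mCherry RNAi, and was not called (log2 fold change -0.03 ± 0.10, edgeR adjusted p = 0.82).

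Hsp23, Hsp26 and Hsp27 encode the classic small heat shock proteins, which heat and ecdysone both induce. Hsp23 and Hsp26 are cytosolic, and Hsp27 is largely nuclear. Hsp23 had 25.2, 17.2 and 19.4 CPM in TDP-43 brains with Atx2 RNAi, 20.1, 17.1 and 32.6 in TDP-43 brains with mCherry RNAi, 27.4, 27.35 and 27.3 in control brains with Atx2 RNAi, and 42.1, 37.2 and 35.75 in control brains with mCherry RNAi. The control brains with mCherry RNAi were highest in all 3 libraries and overlapped with no other group. Within the TDP-43 group with mCherry RNAi, replicate 3 stood well above the other 2 libraries.

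With mCherry RNAi, Hsp23 averaged 23.3 ± 8.25 CPM in TDP-43 brains and 38.3 ± 3.31 CPM in control brains (SD, n = 3 each), a log2 fold change of -0.72 ± 0.22 (edgeR adjusted p = 0.0279), or 1.65-fold lower. This call held under 13 of 18 alternatives. It was lost in a fit of the 2 groups alone (adjusted p = 0.085), without replicate 1 or 2 of the control group (0.0822 and 0.0609) and without replicate 1 or 2 of the TDP-43 group (0.0855 and 0.0716). Against control brains with mCherry RNAi, TDP-43 brains with Atx2 RNAi averaged 20.6 ± 4.14 CPM, a log2 fold change of -0.90 ± 0.22 (edgeR adjusted p = 0.0135). That call was lost without replicate 2 of TDP-43 with Atx2 RNAi (0.0515) and held under the other 17 alternatives. In control brains alone, Hsp23 averaged 27.3 ± 0.0346 CPM with Atx2 RNAi and 38.3 ± 3.31 CPM with mCherry RNAi. The libraries of those groups did not overlap, but the difference did not pass the test over all genes (log2 fold change -0.49 ± 0.22, edgeR adjusted p = 0.26). In a fit of those 2 groups alone it did (adjusted p = 0.00568), as it did without replicate 3 of TDP-43 with mCherry RNAi (0.0386).

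For Hsp26 the order of the 4 group means was the reverse of that for Hsp23. It had 37.2, 25.65 and 27.2 CPM in TDP-43 brains with Atx2 RNAi, 15.3, 11.5 and 31.4 in TDP-43 brains with mCherry RNAi, 24.0, 14.5 and 13.3 in control brains with Atx2 RNAi, and 9.38, 8.34 and 9.89 in control brains with mCherry RNAi. All 9 libraries of the other groups lay above all 3 control libraries with mCherry RNAi. TDP-43 brains with Atx2 RNAi averaged 30 ± 6.28 CPM and control brains with mCherry RNAi 9.2 ± 0.794 CPM (SD, n = 3 each), a log2 fold change of 1.70 ± 0.38 (edgeR adjusted p = 0.00945), or 3.26-fold. This call held under all 18 alternatives. Neither TDP-43 alone nor Atx2 RNAi alone gave a difference called by edgeR with all libraries. The interaction was not called either (-0.28 ± 0.52 on the log2 scale, edgeR adjusted p = 0.849), so no departure from adding the single effects was shown. TDP-43 brains with mCherry RNAi averaged 19.4 ± 10.6 CPM against 9.2 ± 0.794 CPM in control brains with mCherry RNAi (log2 fold change 1.07 ± 0.38, edgeR adjusted p = 0.0506). Control brains with Atx2 RNAi averaged 17.3 ± 5.85 CPM against the same 9.2 ± 0.794 CPM (log2 fold change 0.91 ± 0.38, edgeR adjusted p = 0.223). The first of these lay close to the threshold and was called under 4 of 18 alternatives, by DESeq2 (adjusted p = 0.00283), with genes averaging 5 CPM or more (0.0476), without replicate 1 of control with Atx2 RNAi (0.0419) and without replicate 2 of TDP-43 with mCherry RNAi (0.02). Without replicate 3 of TDP-43 with mCherry RNAi the log2 fold change was 0.53 (adjusted p = 0.159), and in the same setting Hsp26 was called higher with Atx2 RNAi than with mCherry RNAi in TDP-43 brains (log2 fold change 1.17, edgeR adjusted p = 0.0302), where with all libraries it was not (0.63 ± 0.37, adjusted p = 0.302). With Atx2 RNAi in both arms, TDP-43 against control gave 0.79 ± 0.37 (edgeR adjusted p = 0.168), called under 2 of 18 alternatives.

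Hsp27 had 9.16, 5.98 and 6.01 CPM in TDP-43 brains with Atx2 RNAi, 6.24, 6.03 and 10.9 in TDP-43 brains with mCherry RNAi, 7.37, 4.87 and 4.29 in control brains with Atx2 RNAi, and 5.60, 6.96 and 8.06 in control brains with mCherry RNAi. All groups overlapped with each other. No comparison was called, and the log2 fold changes ran between -0.32 ± 0.29 for Atx2 RNAi against mCherry RNAi without TDP-43 (edgeR adjusted p = 0.605) and 0.35 ± 0.29 for TDP-43 against control with Atx2 RNAi (adjusted p = 0.427).

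In the TDP-43 groups, Hsp23, Hsp26 and Hsp27 were high in the same library of a group, replicate 1 with Atx2 RNAi and replicate 3 with mCherry RNAi. In the control groups they did not all run together. In control brains with Atx2 RNAi, Hsp26 and Hsp27 were highest in replicate 1 while Hsp23 was level, and in control brains with mCherry RNAi the highest library was replicate 1 for Hsp23 and replicate 3 for Hsp26 and Hsp27. After each group's mean was subtracted on the log2 scale, Pearson's r over the 12 libraries was 0.83 for Hsp23 with Hsp26, 0.90 for Hsp26 with Hsp27 and 0.66 for Hsp23 with Hsp27. The 3 genes were also set against heat-inducible Hsp70 transcripts, which encode the ATP-dependent chaperone that takes over clients from small heat shock proteins. Against Hsp70Aa, Hsp70Ab, Hsp70Bbb and Hsp70Bc, r was 0.82 to 0.89 for Hsp23, 0.92 to 0.97 for Hsp26 and 0.84 to 0.93 for Hsp27. Against the other 2 copies, r was lower, at 0.72, 0.69 and 0.54 for Hsp23, Hsp26 and Hsp27 with Hsp70Ba, and 0.47, 0.39 and 0.18 with Hsp70Bb. Against the first 4 copies, the same measure was -0.02 to 0.07 for Hsp67Ba, -0.48 to -0.37 for Hsp67Bc and -0.14 to -0.07 for l(2)efl, while Hsp67Ba with Hsp70Bb gave 0.41. Cell type markers moved with the 3 genes too. Of the 5 genes of the hemocyte list, ppl included, 4, 5 and 4 had a positive r with Hsp23, Hsp26 and Hsp27, with medians of 0.69, 0.84 and 0.84. None of the 8 neuron markers had a positive r, with medians of -0.18, -0.53 and -0.66. All 12 muscle markers had a positive r with each of the 3 genes, with medians of 0.23, 0.3 and 0.42. None of 6 gut markers had a positive r with any of them. Of 7 photoreceptor markers 0, 1 and 2 were positive, and fat body and glia markers were mixed in sign. The sum of the hemocyte list, ppl included, was 595, 496 and 505 CPM in TDP-43 brains with Atx2 RNAi, 449, 491 and 726 in TDP-43 brains with mCherry RNAi, 629, 520 and 498 in control brains with Atx2 RNAi, and 531, 452 and 582 in control brains with mCherry RNAi. It was highest in the library that was also highest in Hsp70Aa, and its part in the levels of the 3 genes was not tested. These points share library, depth and scaling, and the Hsp70 copies are near-identical and share reads, so the values describe these libraries and carry no p.

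The libraries behind this pattern were few. Hsp70Aa had 80.8, 35.1 and 44.5 CPM in TDP-43 brains with Atx2 RNAi, 40.35, 28.3 and 192.8 in TDP-43 brains with mCherry RNAi, 83.9, 50.7 and 28.8 in control brains with Atx2 RNAi, and 27.5, 29.7 and 43.6 in control brains with mCherry RNAi. Replicate 3 of TDP-43 with mCherry RNAi was the highest of the 12 for Hsp70Aa and Hsp27, and the highest of its group for Hsp23 and Hsp26. Replicate 1 of each Atx2 RNAi group was the highest of its own group for Hsp26, Hsp27 and Hsp70Aa. The labels give no batch, dissection time or temperature for single libraries, and the part of such differences in the group values of these 3 genes was not tested.

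**Figure D4:**
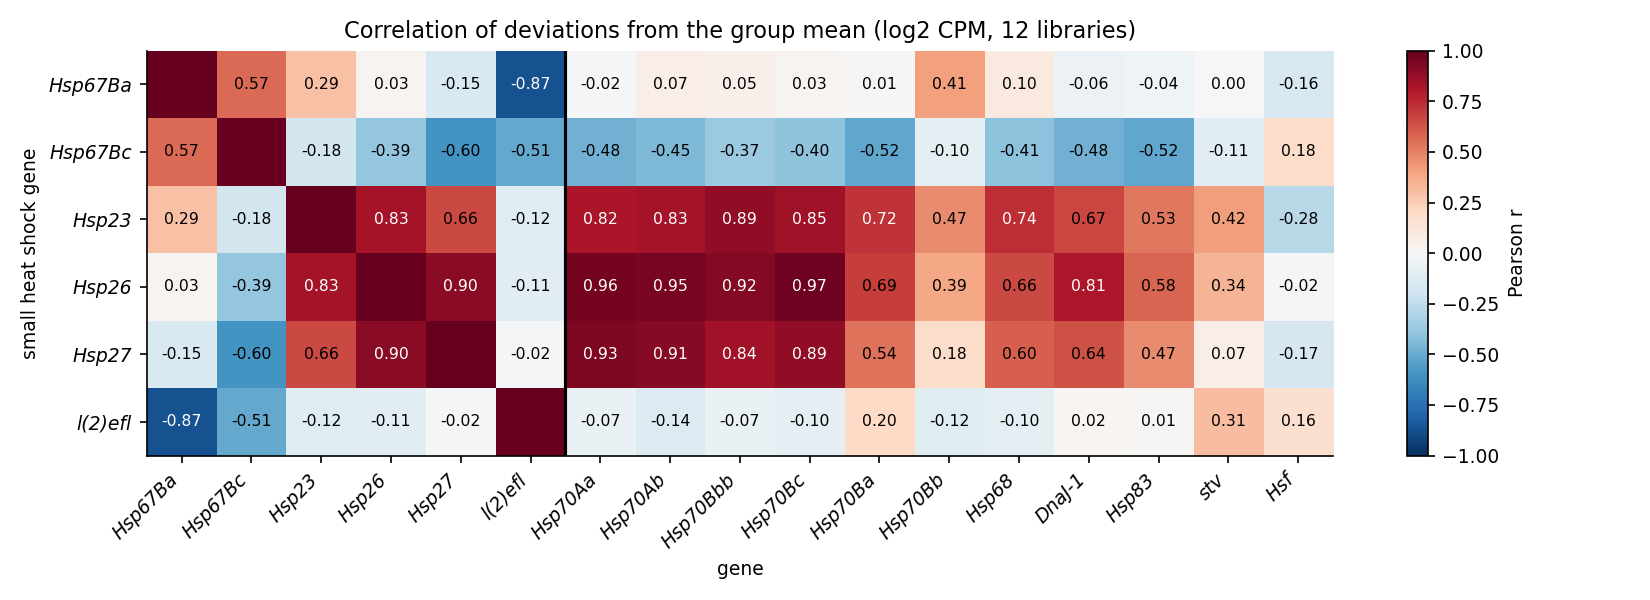
Pearson's r between each of the 6 small heat shock genes (rows) and the same genes, Hsp70 copies and other chaperone or heat shock genes (columns), over the deviations of log2 CPM from the group mean in 12 libraries. The rows of Hsp23, Hsp26 and Hsp27 are red against Hsp70Aa, Hsp70Ab, Hsp70Bbb and Hsp70Bc (0.82 to 0.97), and those of Hsp67Ba and l(2)efl are near white there.

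l(2)efl encodes an alpha-B-crystallin-like protein that, in fly muscle, is found at the Z-disc. It had 6.14, 4.75 and 5.91 CPM in TDP-43 brains with Atx2 RNAi, 5.16, 8.91 and 5.94 in TDP-43 brains with mCherry RNAi, 3.57, 3.58 and 3.56 in control brains with Atx2 RNAi, and 3.75, 2.31 and 4.16 in control brains with mCherry RNAi. Every TDP-43 library was above every control library. With mCherry RNAi it averaged 6.67 ± 1.98 CPM in TDP-43 brains and 3.4 ± 0.97 CPM in control brains (SD, n = 3 each), a log2 fold change of 0.97 ± 0.24 (edgeR adjusted p = 0.00761), or 1.95-fold. The call held under 16 of 17 alternatives, each library left out included, and was lost in the fit of those 2 groups alone (adjusted p = 0.0511). With Atx2 RNAi the means were 5.6 ± 0.747 CPM in TDP-43 brains and 3.57 ± 0.0138 CPM in control brains, and the difference did not pass (log2 fold change 0.65 ± 0.24, edgeR adjusted p = 0.072). The difference between TDP-43 effects under the 2 hairpins was -0.32 ± 0.33 on the log2 scale (edgeR adjusted p = 0.709). TDP-43 brains with Atx2 RNAi against control brains with mCherry RNAi gave a log2 fold change of 0.71 ± 0.24 (edgeR adjusted p = 0.0424), called under 8 of 17 alternatives. The adjusted p of this last call was 0.0612 with the replicate block and 0.0588 with those 2 groups alone. It was 0.132 without replicate 2 and 0.0659 without replicate 1 of control with mCherry RNAi, 0.122 without replicate 1 and 0.107 without replicate 3 of TDP-43 with Atx2 RNAi, and 0.0544, 0.0553 and 0.0557 without replicate 1, 2 or 3 of control with Atx2 RNAi.

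The level of l(2)efl moved with transcripts of muscle and of other tissues outside the brain. Of the 12 muscle genes, 11 had a positive within-group r with l(2)efl, with a median of 0.62 and a highest value of 0.84 over the 12 libraries. So had 7 of 8 fat body, 7 of 7 photoreceptor and 6 of 6 gut genes, and 4 of the 5 genes of the hemocyte list. Their medians were 0.47, 0.44, 0.27 and 0.3. For the 8 neuron and 8 glia genes, 3 and 4 were positive, with medians of -0.04 and -0.01. With mCherry RNAi, 5 of the 12 muscle genes were called higher in TDP-43 brains and 1 lower, against 19.2% and 18.3% of all genes. Of the 5, Act57B and TpnC4 kept the call under all alternatives, while Mlc1, Mlc2 and wupA kept it under 6, 7 and 6 of 18. The 1 called lower was Act79B, at 16.8 ± 1.25 CPM in TDP-43 brains against 54.2 ± 3.17 CPM in control brains (SD, n = 3 each, edgeR adjusted p = 1.62e-05). Act79B kept its call under all 18 alternatives. The median log2 fold change of the 12 was 1.44, beside 0.03 for all genes. The summed muscle level was 216, 648 and 687 CPM in replicates 1 to 3 of TDP-43 with mCherry RNAi, against 181, 178 and 330 CPM in control with mCherry RNAi. The TDP-43 library with the sum of 216 CPM, within the control range, had 5.16 CPM of l(2)efl, above the 4.16 CPM of the highest control library. That sum includes Act79B. Libraries of these groups did not overlap for 3 of the 12 muscle genes, against 46.4% of all genes. Of the 3, Act57B and TpnC4 were higher in every TDP-43 library and Act79B was lower. The lowest TDP-43 values of Act57B and TpnC4 were 29.7 and 2.85 CPM, against highest control values of 17.5 and 0.994 CPM. The gut sum was highest in the same library as l(2)efl, replicate 2 of TDP-43 with mCherry RNAi, and without that library the log2 fold change of l(2)efl was 0.70 (edgeR adjusted p = 0.0342). The part of muscle, gut or other tissue transcripts in the rise of l(2)efl was not tested. Hsp67Ba and Hsp67Bc ran against the muscle genes within groups, with 0 of 12 positive and medians of -0.58 and -0.80. The part of muscle transcripts in the levels of those 2 genes was not tested. Between the members, r was -0.87 for Hsp67Ba with l(2)efl and 0.57 for Hsp67Ba with Hsp67Bc.

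The makeup of the small heat shock transcripts was also described by group. Of the length-scaled sum, Hsp26 made up 26.3% in TDP-43 brains with Atx2 RNAi, 18.7% in TDP-43 brains with mCherry RNAi, 15.7% in control brains with Atx2 RNAi and 7.74% in control brains with mCherry RNAi. Hsp23 made up 20.7%, 26.3%, 28.7% and 36.7% in those groups, in that order. Over single libraries, the share of Hsp26 was 24.5% to 29.3% in TDP-43 brains with Atx2 RNAi and 7.03% to 8.68% in control brains with mCherry RNAi, and that of Hsp23 was 18.8% to 22.7% and 35.8% to 38.5% in those groups, so Hsp26 exceeded Hsp23 in each library of the first and Hsp23 exceeded Hsp26 in each library of the second. Hsp67Ba held 30.4%, 28%, 35.5% and 35.4% in the 4 groups in the same order, l(2)efl 6.75%, 9.61%, 4.47% and 3.91%, and Hsp67Bc between 12.1% and 12.6%. These shares restate the levels above and were given no test of their own.

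**Figure D5:**
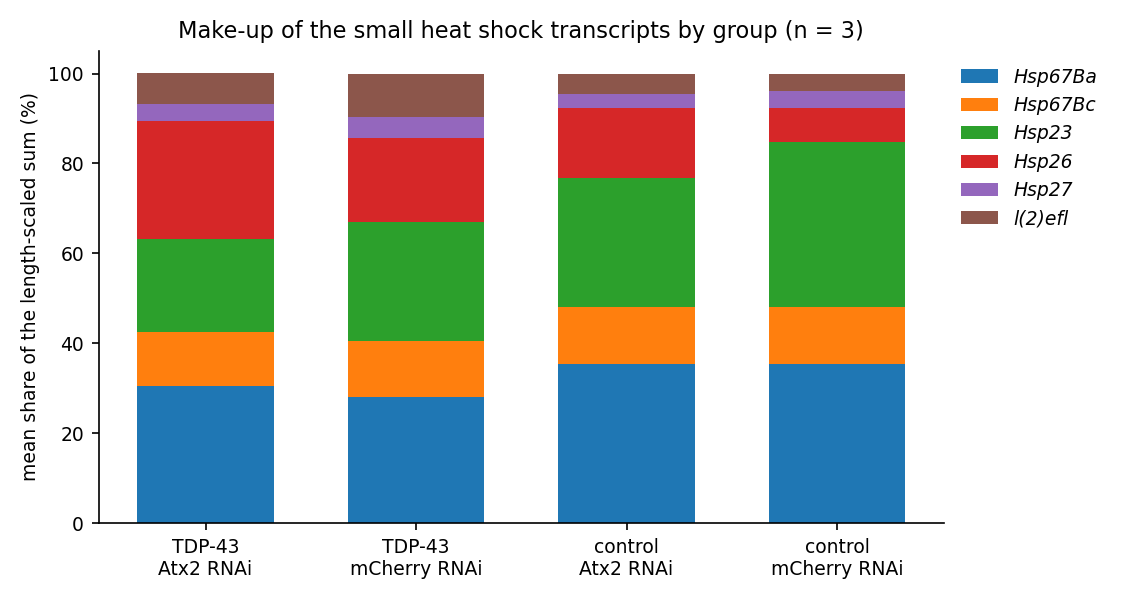
Mean share (%) of each of the 6 genes in their summed CPM per kb of exon, by group (n = 3 libraries each). The Hsp26 segment is 26.3% in TDP-43 brains with Atx2 RNAi and 7.74% in control brains with mCherry RNAi, where the Hsp23 segment is 36.7%.

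Other genes with an alpha-crystallin domain gave 1 call in the 6 comparisons. Of 5 with a row, 4 were tested (CG4461, CG7409, CG13133 and CG14207). With mCherry RNAi 0 of the 4 were called by edgeR between TDP-43 and control brains, against 37.6% of all genes. An unadjusted p under 0.05 was found for 1 of them. CG14207, the most abundant of them, had 71.8, 68.8 and 75.8 CPM in TDP-43 brains with mCherry RNAi, against 66.2, 60.0 and 67.7 CPM in control brains with mCherry RNAi (log2 fold change 0.16 ± 0.06, edgeR adjusted p = 0.0637). With Atx2 RNAi, CG13133 was called, at 0.555, 3.465 and 2.17 CPM in TDP-43 brains against 0.404, 0.209 and 0.224 CPM in control brains (log2 fold change 2.86 ± 0.75, edgeR adjusted p = 0.0186). That call of a low-count gene was lost without replicate 2 or 3 of control with Atx2 RNAi or replicate 2 of TDP-43 with Atx2 RNAi, with adjusted p up to 0.0766. CG4461, which lies inside the 67B cluster, was called in no comparison and had 0.194, 1.55 and 3.49 CPM in TDP-43 brains with mCherry RNAi, against 0.464, 0.234 and 2.09 CPM in control brains with mCherry RNAi.

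Among the heat shock factor, inducible Hsp70 genes and their partners, a list of 10, 2 were called higher and 1 lower in TDP-43 than in control brains with mCherry RNAi. Of all genes, 37.6% were called in that comparison, and the count was not tested against that share. Hsp70Bb had 850, 924 and 1048 CPM in TDP-43 brains against 182, 161 and 117 CPM in control brains, a log2 fold change of 2.62 ± 0.16 (edgeR adjusted p = 2.1e-06). Counts of Hsp70Ba were higher too, by 3.13 ± 0.20 on the log2 scale (edgeR adjusted p = 2.64e-06). The transcript of the transgene was not analysed, and its part in the counts of these 2 copies was not tested. Hsp70Aa and Hsp70Bc, further copies of the same gene family, were not called (adjusted p = 0.189 and 0.265), and reads cannot be assigned to 1 copy with certainty. Hsf, which encodes the heat shock factor, fell by 0.16 ± 0.04 on the log2 scale (edgeR adjusted p = 0.00961). Hsp68, Hsp83 (the Hsp90 of flies) and DnaJ-1 (an Hsp40 co-chaperone) were not called, with log2 fold changes of 0.31, 0.02 and 0.27. Without TDP-43, Hsp70Bb was higher with the Atx2 hairpin, at 324, 261 and 273 CPM, against 182, 161 and 117 CPM with mCherry RNAi (log2 fold change 0.90 ± 0.16, edgeR adjusted p = 0.00978), a call lost in the fit of those 2 groups alone (0.0824). In TDP-43 brains the hairpin gave 0 calls of the 10 by edgeR, against 14% of all genes, with 1 at an unadjusted p under 0.05.

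Of 19 tested constitutive chaperones, 2 were called lower and 0 higher with TDP-43 under mCherry RNAi, Droj2, a DnaJ co-chaperone, and Hsp60A, the mitochondrial chaperonin. In that comparison 37.6% of all genes were called, and the count was not tested against that share. The Droj2 call was lost in 3 of 18 alternatives (adjusted p up to 0.0733), among them without replicate 1 of the control or replicate 2 of the TDP-43 group. The Hsp60A call was lost in 5 of 18 (up to 0.0986), among them without replicate 1 or 2 of the control or replicate 2 or 3 of the TDP-43 group. Trap1, the mitochondrial Hsp90, had 57.3, 60.0 and 59.8 CPM in TDP-43 brains with Atx2 RNAi, against 88.1, 80.8 and 78.2 CPM with mCherry RNAi (log2 fold change -0.48 ± 0.06, edgeR adjusted p = 4.92e-04). In control brains Trap1 was also lower with Atx2 RNAi, at 54.98, 53.7 and 58.2 CPM against 83.0, 83.9 and 74.8 CPM (log2 fold change -0.53 ± 0.06, edgeR adjusted p = 3.24e-04). No library with Atx2 RNAi overlapped with a library with mCherry RNAi, and both calls held under all 18 alternatives. Of 13 ecdysone and FOXO regulators and targets, 1 rose and 3 fell with TDP-43 under mCherry RNAi, against the same 37.6% of all genes called. Eip71CD, an ecdysone-induced methionine sulfoxide reductase, had 38.35, 38.3 and 47.8 CPM in TDP-43 brains against 101.5, 85.2 and 96.25 CPM in control brains (log2 fold change -1.19 ± 0.14, edgeR adjusted p = 1.01e-04), and it fell likewise under Atx2 RNAi (-1.14 ± 0.14, adjusted p = 2.03e-04). Thor, the translation inhibitor 4E-BP and a FOXO target, had 26.1, 60.6 and 62.9 CPM in TDP-43 brains against 10.8, 9.105 and 22.2 CPM in control brains with mCherry RNAi (log2 fold change 1.82 ± 0.45, edgeR adjusted p = 0.0123), a call lost in the fit of those 2 groups alone (0.0688).

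For each of the 6 genes, the 3 genes with the most similar profile over the 12 libraries were taken from 7598 genes averaging 5 CPM or more, by Pearson's r of log2 CPM. Hsp67Ba was closest to SRm160, Nepl5 and CG3548 (r = 0.979, 0.979 and 0.978), of which Nepl5 encodes a neprilysin-like protease. Hsp67Bc was closest to CG7903, Rab3 and Csp (0.931, 0.917 and 0.908), the last 2 being a synaptic vesicle GTPase and a synaptic vesicle co-chaperone. Hsp23 was closest to fax, myo and NKCC (0.923, 0.918 and 0.913), which encode an axon-connection protein, the TGF-beta ligand myoglianin and a cation-chloride cotransporter. Hsp26 was closest to CG10527, the pseudogene CR18228 and CG7324 (0.933, 0.911 and 0.896), and Hsp27 to CG9628, CG9512 and CG5397 (0.913, 0.90 and 0.894). l(2)efl was closest to Mlc1, pyr and Mp20 (0.923, 0.923 and 0.918), of which Mlc1 and Mp20 encode muscle proteins and pyr an FGF ligand. All these values are over libraries that share group differences, depth and scaling.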

How the data were processed

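Total brain polyA RNA was sequenced from a stranded library kit, per the labels' protocols. The authors deposited one table of raw read counts per gene, whole numbers without normalisation. Per the submitters' processing notes, the tools were STAR 2.7.3a, Trim Galore, SAMtools and DESeq2, on dm6, and the counting tool and its strand setting are not given in the sources used here.

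From the deposited counts, 10738 of 17562 genes were kept with filterByExpr (6824 removed), and libraries were scaled by TMM (factors 0.962 to 1.033). A robust quasi-likelihood model with a mean per group was fitted to all 12 libraries (8 residual degrees of freedom) in R 4.3.3 with edgeR 4.0.16 and limma 3.58.1. P-values were adjusted by Benjamini-Hochberg over the 10738 genes and called under 0.05, with no minimum fold. The SE of a log2 fold change was derived from its size and its F statistic. Within-group correlations used log2 CPM with a prior count of 2. Of the steps, only the edgeR test was run on simulated counts with planted fold changes, for TDP-43 against control with mCherry RNAi. The other comparisons, the correlations and the alternatives were not tested in this way. Coordinates, exons and strands are those of the Ensembl release 115 annotation of the same assembly, in which 16847 of the 17562 symbols were matched.

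Alternatives were DESeq2 1.42.0, its median-ratio size factors in edgeR, no filter, genes averaging 5 CPM or more, only the groups compared, the replicate number as a block, and leaving out each library. Deviations from the group means of same-numbered libraries correlated above 0.1 in all 3 pairs for Atx2 against mCherry RNAi with TDP-43 (0.252, 0.623 and 0.193), and likewise under the Atx2 hairpin for TDP-43 against control (0.291, 0.399 and 0.144). The main fits did not pair libraries by number in any comparison, so their p-values ignore that resemblance. Pairing entered only through the replicate block among the alternatives. Nothing in the labels says what a number marks, and it is not stated that replicates came from separate crosses, so a p-value here reflects the spread of libraries as labelled. Libraries of a group differed by more than counting error (chi-square over its degrees of freedom 17.2 to 159). All 8 listed genes are named, with, of each gene list, counts and up to 4 called genes per comparison, fixed heat shock genes, the 67B neighbours and the 3 most similar genes. CG14207, Hsp70Aa and Hsp70Bc were named after their values were seen. The members and lists were chosen with earlier results of these data known.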

Additional observations from a re-analysis of the deposited data

Results flagged for a closer look

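The effect of TDP-43 on Hsp67Ba differed between the hairpins by a test of the difference itself. The log2 effect of TDP-43 with Atx2 RNAi minus that with mCherry RNAi was 0.45 (edgeR adjusted p = 0.0393), with effects of -0.18 under Atx2 RNAi and -0.64 under mCherry RNAi. The 3 TDP-43 libraries with Atx2 RNAi had 57.7 to 59.4 CPM, and the 3 with mCherry RNAi 44.1 to 47.8 CPM. The call was lost in 10 of the 12 fits that leave out a library.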

How the results depend on the processing

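Over 636 alternative fits of single small heat shock genes, 562 kept the direction and the side of the threshold, 43 lost a call, 16 gained a call and 15 changed sign. Of the sign changes, 14 came from leaving out a library, and the other was Hsp67Bc, TDP-43 against control with Atx2 RNAi, at 0.0265 among genes averaging 5 CPM or more. The cause was not tested.

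The count of small heat shock genes called for TDP-43 against control with mCherry RNAi was 1 with only those groups, and ranged from 2 to 5 with a library left out. For Atx2 RNAi with TDP-43 it ranged from 1 to 2. For Atx2 RNAi without TDP-43 it was 1 by DESeq2, 1 with only those groups, and 0 to 1 with a library left out. For TDP-43 against control with Atx2 RNAi it was 3 by DESeq2, 2 with only those groups, 0 with median-ratio size factors, 0 without a filter, 0 among genes averaging 5 CPM or more, 0 with the replicate block and 0 to 2 with a library left out. For the interaction it was 0 to 1 with a library left out.

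Over all genes, calls for Atx2 RNAi with TDP-43 were 891 with only those groups and 746 to 1679 with a library left out, against 1508. For Atx2 RNAi without TDP-43 they were 292 to 802, against 663. For the interaction they were 533 by DESeq2, 138 with the replicate block and 10 to 74 with a library left out, against 46.

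With a library left out, log2 fold changes that changed sign were, for Hsp27, -0.17 to 0.31 (TDP-43 against control with mCherry RNAi), -0.36 to 0.20 (Atx2 RNAi with TDP-43), -0.20 to 0.15 (TDP-43 with Atx2 RNAi against control with mCherry RNAi) and -0.0452 to 0.53 (interaction). For Atx2 RNAi with TDP-43 they were -0.36 to 0.15 for Hsp23 and -0.41 to 0.0126 for l(2)efl. They were -0.15 to 0.23 for l(2)efl (Atx2 RNAi without TDP-43), -0.0591 to 0.0277 for Hsp67Bc (TDP-43 against control, both with Atx2 RNAi) and -0.55 to 0.27 for Hsp26 (interaction).

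The replicate block ended 2 calls, that of Hsp67Ba for TDP-43 against control, both with Atx2 RNAi (adjusted p = 0.0521), and that of l(2)efl for TDP-43 with Atx2 RNAi against control with mCherry RNAi (0.0612), and changed no other call of the 6 genes. Over all 15 pairs of same-numbered libraries, r of the deviations ran from -0.333 to 0.623, with 7 above 0.1, and the labels do not say what a number marks. Counts were 69 at the lowest (l(2)efl), and the SE of a log2 fold change was largest for Hsp26 (0.37 to 0.38 between groups). Differences well beyond their SE were also left uncalled. Hsp26 was 1.07 ± 0.38 for TDP-43 against control with mCherry RNAi (edgeR adjusted p = 0.0506). For Atx2 RNAi without TDP-43 it was 0.91 ± 0.38 (edgeR adjusted p = 0.223). A gene that was not called is therefore not shown to be unchanged. l(2)efl has no value among genes averaging 5 CPM or more, where it was removed.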
